A study of Mus musculus with 16 samples.

Results

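The mouse genes Unc13c, Vgf, Arhgap40, Olfr815, Xlr3b, Gucy2c and Spata20, were read in quantity in liver libraries of the empty vector group and almost not at all in those of the LCAT overexpression group. They are 7 of the 16793 genes in the deposited table and were picked by name for those LCAT and Vec values, so these values are given as a description and carry no test. The levels in the libraries of the surgery experiment took no part in the choice.

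Polyadenylated RNA was sequenced from whole liver of mice labelled as wild type, all with experimentally induced primary liver cancer, in 4 groups of 4 libraries. The LCAT group overexpressed lecithin-cholesterol acyltransferase (LCAT), the plasma enzyme that esterifies cholesterol on high-density lipoprotein, in the liver, and the Vec group received an empty vector. The OVX group was ovariectomized and the Sham group had sham surgery, both in female mice. The sources used here do not give the age of the mice, the agent that induced the cancer, the vector or its promoter. Nor do the labels say that libraries come from separate animals, so the p-values measure only the spread between these samples. All values are normalized read counts, that is reads divided by 1 scaling factor per library, unless another scale is named.

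Lcat itself had 5014, 5074, 5106 and 4531 in LCAT libraries 1 to 4, against 3348, 2926, 4521 and 2980 in the Vec libraries. Every LCAT library lay above every Vec library, by a narrow margin between LCAT library 4 and Vec library 3. The log2 fold change was 0.54 (limma, adjusted p = 0.0168), and the call was lost with equal library totals, without Vec library 2, without Vec library 4 and in libraries 1 and 4 alone. Hepatocyte marker sums of 2524000 to 4259000 over the 16 libraries matched the tissue label. The 4 Y-linked genes looked at summed to 1604 to 2083 in LCAT, 2356 to 2531 in Vec, 0.675 to 3.93 in OVX and 0.839 to 7.38 in Sham, so the vector libraries hold Y-linked transcripts and the surgery libraries do not. Differences between the 2 experiments and differences between those transcript states therefore cannot be told apart, and levels are compared across experiments only as a description. Genes with a mean of at least 50 and a log2 difference of at least 1 between libraries 1 and 4 were looked at in each group. On a scale where library 4 is 0 and library 1 is 1, libraries 2 and 3 had medians of 0.766 and 0.619 over 656 genes in OVX. Medians lay between 0 and 1 in the other groups too, over 2390 genes in LCAT, 1296 in Sham and 188 in Vec. Genes picked for that difference tend by selection to place the other libraries in between. Whether these libraries share material was not tested, and the counts in the closing section include the end libraries alone.

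Most of these genes are known from tissues other than liver. Munc13 proteins such as Unc13c prime vesicles for fusion in neurons, and Vgf is the precursor of secreted neuropeptides kept in the granules of neurons and endocrine cells. Gucy2c is the receptor guanylyl cyclase of intestinal epithelium, which makes cyclic GMP when it binds guanylin or uroguanylin, and Olfr815 is an olfactory receptor, a G protein-coupled receptor of odour-sensing neurons. Arhgap40 is named as a GTPase-activating protein, Xlr3b is an X-linked gene that is imprinted in mouse brain, and Spata20 is a testis-enriched gene whose protein has a thioredoxin-like domain. In whole tissue, fewer cells of a type and less RNA per cell cannot be told apart.

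RefSeq promoter windows (GRCm38.p6, 250 bases before to 50 after the start site) were found for 5 of the 7 genes, Unc13c, Arhgap40, Olfr815, Xlr3b and Spata20, and not for Vgf and Gucy2c. Windows are shown for the gene with the highest Vec level and for Olfr815 with Olfr816, the neighbouring receptor gene whose levels were most like it. Capitals mark each match, on either strand, to the 7 motifs searched. These were the TATA box (TATAAA), the CCAAT box, the GC box (GGGCGG), the cyclic AMP response element (TGACGTCA), the E-box (CACGTG), the estrogen response element (GGTCA followed after 3 bases by TGACC) and direct repeat 4 (AGGTCA repeated after 4 bases), and no match overlapped another.
Unc13c, chr9:73968988-73969287, minus strand: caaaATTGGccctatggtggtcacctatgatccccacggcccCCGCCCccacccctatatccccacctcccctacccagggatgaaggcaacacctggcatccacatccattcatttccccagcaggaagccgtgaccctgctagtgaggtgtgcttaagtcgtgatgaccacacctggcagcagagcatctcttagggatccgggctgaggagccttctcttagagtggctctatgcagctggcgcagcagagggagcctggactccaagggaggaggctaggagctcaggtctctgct
Olfr815, chr10:129902677-129902976, minus strand: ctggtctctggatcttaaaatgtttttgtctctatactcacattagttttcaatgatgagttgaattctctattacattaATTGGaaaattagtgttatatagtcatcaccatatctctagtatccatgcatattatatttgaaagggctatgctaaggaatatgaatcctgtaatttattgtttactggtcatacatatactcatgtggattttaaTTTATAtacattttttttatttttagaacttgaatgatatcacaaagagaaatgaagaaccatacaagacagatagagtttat
Olfr816, chr10:129912227-129912526, minus strand: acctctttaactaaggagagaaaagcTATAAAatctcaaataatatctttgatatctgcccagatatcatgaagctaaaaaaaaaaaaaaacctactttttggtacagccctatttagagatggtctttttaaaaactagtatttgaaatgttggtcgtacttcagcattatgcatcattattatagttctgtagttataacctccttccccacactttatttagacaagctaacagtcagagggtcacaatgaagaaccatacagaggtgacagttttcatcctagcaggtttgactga

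In the Unc13c window the capitals are CCAAT, read on the opposite strand, at position -246 from the start site and GGGCGG, also on the opposite strand, at -208. In the Olfr815 window they are CCAAT at -170 and TATAAA at -33, both on the opposite strand, and in the Olfr816 window TATAAA at -224. CCAAT was in 4 of the 5 windows, GGGCGG in 3 and TATAAA in 1, against 37.4%, 35.7% and 13.6% of all 32851 windows of the table. The other 4 motifs, held by 1.79% (TGACGTCA), 7.15% (CACGTG), 0.07% (estrogen response element) and 0.0152% (direct repeat 4) of windows, had no match in these letters. The windows differed in base composition: Unc13c had 59.3% G or C with 6 CpG pairs, while Olfr815 had 27.7% with 0 and Olfr816 34.0% with 1, beside a median of 7 CpG pairs over all windows. The RefSeq start sites of Olfr815 and Olfr816 lie 3141 and 3321 bases inside the longer GENCODE M21 gene models, so these windows need not be where the counted transcripts begin.

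Unc13c was the highest of the 7 genes. It had 0 reads in each LCAT library, against 1024, 1163.5, 1045.5 and 1113.1 in Vec libraries 1 to 4 (mean 1086.5 ± 63.8, SD, n = 4), and 0 reads in every OVX and Sham library. The gene was read in 1 group of 4, and its Vec libraries stayed within 1.14 times of each other. Against a floor of 3 reads over the LCAT libraries, Unc13c was at least 1139-fold lower in LCAT. It spans 73479422 to 73968966 on the minus strand of chromosome 9 (mm10), shares no stretch of 50 bases with another gene, and holds 4 small GENCODE genes on its own strand. Per kilobase of the longest transcript the Vec level was 124 ± 7.26, above 67.0% of genes. Its paralogs were read in all 4 groups. Unc13b, the widely expressed member, averaged 530 ± 40.2 in LCAT, 655 ± 38.3 in Vec, 604 ± 53.6 in OVX and 666 ± 91.1 in Sham. Unc13a, the main neuronal member, averaged 120 ± 28.5 in LCAT, 190 ± 17.8 in Vec, 70.7 ± 4.21 in OVX and 29.4 ± 14.1 in Sham. It was thus also highest in Vec, at 172 to 213 there and at most 143 in any other library. Unc13d, which acts in blood cell granule release, averaged 22.5 ± 9.20 in LCAT, 18.1 ± 7.90 in Vec, 15.3 ± 3.59 in OVX and 4.93 ± 5.44 in Sham.

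Vgf had 0 reads in each LCAT library, against 342, 352, 327 and 142 in Vec libraries 1 to 4 (291 ± 99.6). It had 0, 2.03, 0 and 0 in the OVX libraries and 0, 0, 2.55 and 0 in the Sham libraries, which is 3 reads in each group. Vec library 4 was the low one, and Vgf varied more than any other of the 7 genes there, at 38.0 times the variance that counting alone gives; the median over 8036 genes of similar level was 2.0. Vgf was at least 299-fold lower in LCAT. It lies at 137026392 to 137033351 on the plus strand of chromosome 5, and per kilobase its Vec level was 103 ± 35.1. Other granins were read near the floor. Chga, chromogranin A, had 6.99 to 13.2 in the Vec libraries and 0 in the other 12, and Scg2, secretogranin II, had 0 in LCAT, up to 5.49 in Vec, 4.92 to 16.05 in OVX and 5.48 to 15.8 in Sham.

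Gucy2c, at 136697284 to 136781765 on the minus strand of chromosome 6, had 4.67, 5.50, 6.26 and 0 in LCAT libraries 1 to 4, against 354, 415, 314 and 364 in the Vec libraries. Of the 7 genes it kept the most reads in LCAT, 14 over the group, and its LCAT level was 1.23% of the Vec level (95% counting interval 0.671 to 2.07%). Intervals and floors here cover counting error only. Its ligands were near the floor: Guca2a, guanylin, had at most 4.67 in any library and Guca2b, uroguanylin, was at 0 in all Vec libraries and reached 15.6 in 1 LCAT library. Markers of intestinal epithelium were mixed. The summed list ran from 3257 to 5810 in LCAT and from 4888 to 5400 in Vec, carried by Cdh17, Fabp2, Krt20 and Lgals4. Of the 5 tested, 2 were higher and 1 lower in LCAT, beside 20.2% and 20.5% of all genes (1 and 1 on equal totals). The lower one was Cdh17 (-1.07, limma, adjusted p = 6.41e-05), a call lost in libraries 1 and 4 alone. Lgals4 was higher (0.78, adjusted p = 0.0164), a call lost there and on equal totals. Vil1 had 57.6 to 91.2 in LCAT and 7.02 to 55.95 in Vec, so every LCAT library was above every Vec library. Muc2, Sis, Alpi, Gpa33 and Guca2a stayed at or under 5.27 in all 8 libraries, and Cdx1 and Cdx2 were not analysed here.

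Olfr815, at 129900570 to 129905867 on the minus strand of chromosome 10, had 0, 1.10, 1.04 and 0 in LCAT libraries 1 to 4, against 109, 97.6, 80.1 and 119 in the Vec libraries (101 ± 16.6), and 0 reads in all OVX and Sham libraries. Its 2 LCAT reads came to 0.616% of the Vec level (0.0744 to 2.24%). Of its 50-base stretches 44.5% also occur in Olfr814, so reads could have been divided between them. Within 500 kb on each side the table held 12 Olfr genes, Olfr815 included. Of these, 6 (Olfr788, Olfr801, Olfr803, Olfr804, Olfr809 and Olfr812) had a Vec mean of at most 1.02, and Olfr822 had 1.54; Olfr803 had 0.826 to 1.02 in all 4 groups. Olfr816 had 0 reads in LCAT, against 64.1, 35.4, 34.0 and 63.8 in Vec, and was at least 54.0-fold lower in LCAT. Olfr814 averaged 0.647 ± 0.775 in LCAT and 23.4 ± 4.76 in Vec. In all, 5 Olfr genes other than Olfr815 were tested in LCAT against Vec, and 2, Olfr814 and Olfr816, were lower and 1, Olfr1034, higher (1.40, limma, adjusted p = 0.0354, a call lost in 11 of 18 alternatives, equal library totals among them). Olfr814 and Olfr816 reached the minimum mean of 10 only through Vec, so a call of either could only be lower. Likewise Olfr1034, at 6.67 in Vec and 21.9 in LCAT, reached it only through LCAT. Of all genes tested, 20.2% were called higher and 20.5% lower. Olfr818 and Olfr810 had means of 6.32 and 3.71 in Vec and 0 reads elsewhere. Among all 16793 genes, 6 (0.0357%) had reads in every Vec library and 0 in the other 12 libraries, and they were Unc13c, Olfr816, Uts2, Chga, Olfr818 and Olfr810; for comparison, 6 genes had this pattern for LCAT, 3 for OVX and 3 for Sham. Olfactory neuron markers were mixed. Omp had 5.22 to 6.22 in LCAT and 6.58 to 7.90 in Vec, and Ano2 was at 0 in both. Gnal went the other way, at 95.8 to 155.6 in LCAT and 58.5 to 77.9 in Vec. Its log2 fold change was 0.82 (limma, adjusted p = 0.00701), a call lost in libraries 1 and 4 alone. Adcy3 overlapped, at 0 to 12.4 in LCAT and 3.29 to 24.5 in Vec. The list summed to 114 to 162 in LCAT and 79.9 to 106 in Vec.

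Xlr3b, at 73192207 to 73202930 on the plus strand of chromosome X, had 0, 5.50, 4.17 and 0 in LCAT libraries 1 to 4, against 240, 218, 212 and 202 in the Vec libraries (218 ± 15.97). The LCAT level was 1.31% of the Vec level (0.596 to 2.49%). Its value is uncertain, since 56.6% of its 50-base stretches occur elsewhere, 42.8% in Xlr3a, and Xlr5a overlaps it on the other strand; the sources used here do not say whether reads were counted by strand. Of the 5 other Xlr genes tested, 0 were higher and 4 lower in LCAT, where 20.2% and 20.5% of all 13095 genes were called higher and lower (40.7% in either direction; 2651 and 2681 genes, or 1793 and 3967 on equal library totals). The 4 calls held on equal totals, and the median log2 fold change of the 5 was -2.51. Among the 4, Xlr4b and Xlr4c (8.72 in LCAT, 37.3 in Vec) reached the minimum mean of 10 only through Vec. Their calls could therefore only be lower, which limits the comparison with all genes. Xlr3a averaged 83.1 ± 61.1 in LCAT and 278 ± 34.6 in Vec (log2 fold change -2.08, adjusted p = 0.0163). Xlr4b averaged 9.69 ± 6.63 in LCAT and 72.3 ± 4.99 in Vec (-3.35, adjusted p = 0.0127). Xlr3c (-3.38) and Xlr4c (-2.51) were also lower, with Xlr3c, Xlr4b and Xlr4c all at 0 in LCAT library 4, and their calls were lost without any 1 of several libraries, while Xlr4a averaged 28.5 ± 8.18 in LCAT and 29.0 ± 6.43 in Vec. None of the 4 calls held in libraries 1 and 4 alone, where 1 gene was called higher and 2 lower in all.

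**Figure D1:**
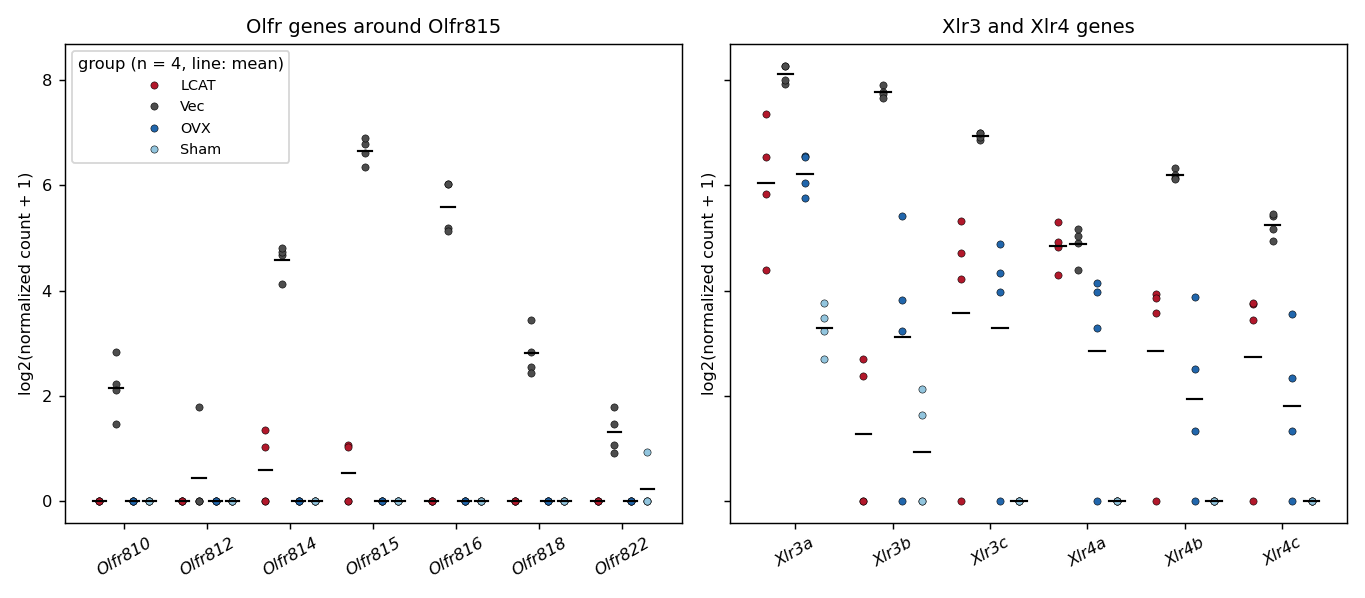
Levels of Olfr genes around Olfr815 (left) and of Xlr3 and Xlr4 genes (right) as log2(normalized count + 1), 4 libraries per group in the order LCAT, Vec, OVX, Sham, with a line at each mean. The Vec libraries stand above the other 12 for Olfr814, Olfr815, Olfr816 and Olfr818, and Xlr4a is the Xlr gene whose LCAT and Vec libraries overlap.

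Arhgap40, at 158512796 to 158550762 on the plus strand of chromosome 2, had 0 reads in each LCAT library, against 125, 111, 77.9 and 113 in Vec libraries 1 to 4 (107 ± 20.3). It was at least 114-fold lower in LCAT. The OVX libraries had 8.40, 4.73, 0 and 0, and the Sham libraries 11.6, 10.1, 0 and 2.74. Both surgery groups thus held a few reads of it, and they overlapped. Of the other Arhgap genes, 3 of 29 tested were higher and 9 lower in LCAT (41.4%, beside 40.7% of all genes). The median log2 fold change was -0.42. After scaling to equal totals 2 were higher and 14 lower, where calls over all genes were 1793 higher and 3967 lower. Arhgap27 had the smallest p, at 181 ± 13.99 in LCAT and 866 ± 85.5 in Vec (log2 fold change -2.25, adjusted p = 3.72e-06), and Arhgap45 the smallest among those that rose (1.0, adjusted p = 0.00104).

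Spata20, at 94478904 to 94486179 on the minus strand of chromosome 11, had 0, 2.20, 5.22 and 0 in LCAT libraries 1 to 4, against 109, 115, 96.5 and 99.6 in the Vec libraries (105 ± 8.33). The LCAT level was 2.12% of the Vec level (0.847 to 4.41%), the highest such share of the 7 genes. Its Vec libraries varied by 0.608 times the counting variance, so their spread was no larger than counting gives. OVX libraries 1 to 3 of Spata20 stood above all of its Vec libraries. Male germ cell markers were near the floor: Ddx4, Dazl and Sycp3 summed to at most 3.30 in LCAT and 2.19 in Vec, and the other 7 of the 10 listed were not analysed here. Of 9 other Spata genes tested in LCAT against Vec, 1 was higher and 1 lower (22.2%, beside 40.7% of all genes). The higher one was Spata2l (1.11, limma, adjusted p = 2.92e-05). The lower one was Spata13 (-0.55, adjusted p = 0.0257), a call lost without any 1 of several libraries. On equal totals 1 was higher and 2 lower.

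**Figure D2:**
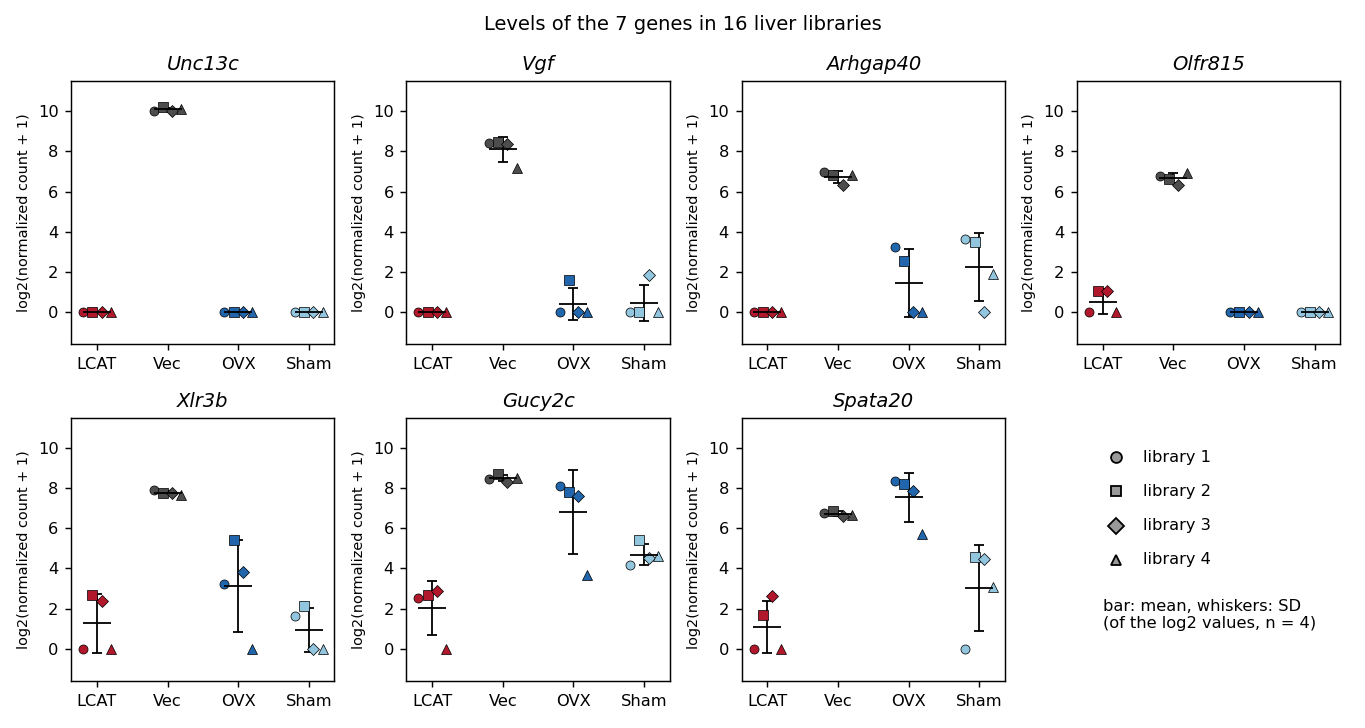
Each panel shows 1 gene as log2(normalized count + 1) in LCAT, Vec, OVX and Sham libraries, with a marker shape per library number and the mean ± SD of the log2 values (n = 4). Vec is high for all 7 genes, LCAT is at or near 0, and Gucy2c and Spata20 are also high in OVX libraries 1 to 3.

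Within LCAT the few reads were unevenly placed. All 7 genes were at 0 in LCAT library 4 and 6 of 7 in LCAT library 1, and the reads of Olfr815, Xlr3b and Spata20 were all in LCAT libraries 2 and 3. Of the 7, 3 had 0 reads in every LCAT library. LCAT libraries 1 and 4 were also the shallowest of the group, at 14023038 and 12562943 reads. Libraries 2 and 3 had 17915739 and 19248762. The part of depth in this placement was not tested. The 7 genes together had 32 reads over the LCAT libraries and 9078 over the Vec libraries, at depths of 12562943 to 19248762 reads per LCAT library and 14412808 to 20659336 per Vec library.

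The same pattern, a mean under 2 in one group and at least 20 in every library of the other, was found in 16 genes (0.0953% of the table) for LCAT low against Vec, and in 12 genes (0.0715%) for Vec low against LCAT. Without LCAT library 1 these counts were 19 for LCAT low and 39 for Vec low, and without LCAT library 4 they were 17 and 19. Of the 16, 5 were among the 7 genes; Xlr3b and Gucy2c fell just outside with LCAT means of 2.42 and 4.11, while Spata20 was just inside at 1.85. The other 11 were Efna3, Dnah1, Barx2, 2010109I03Rik, Ivl, Mpo, Mt4, AA467197, Olfr816, Bean1 and Ccl11, with Vec means of 26.4 to 87.0. Against Sham, OVX was low in 1 gene (0.00595%), Obp2a, and Sham was low against OVX in 13 genes (0.0774%). Several of the 16 were read in OVX. Efna3, an ephrin ligand, averaged 92.6 in OVX and 19.5 in Sham, and Dnah1, an axonemal dynein, 63.3 in OVX and 10.8 in Sham.

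**Figure D3:**
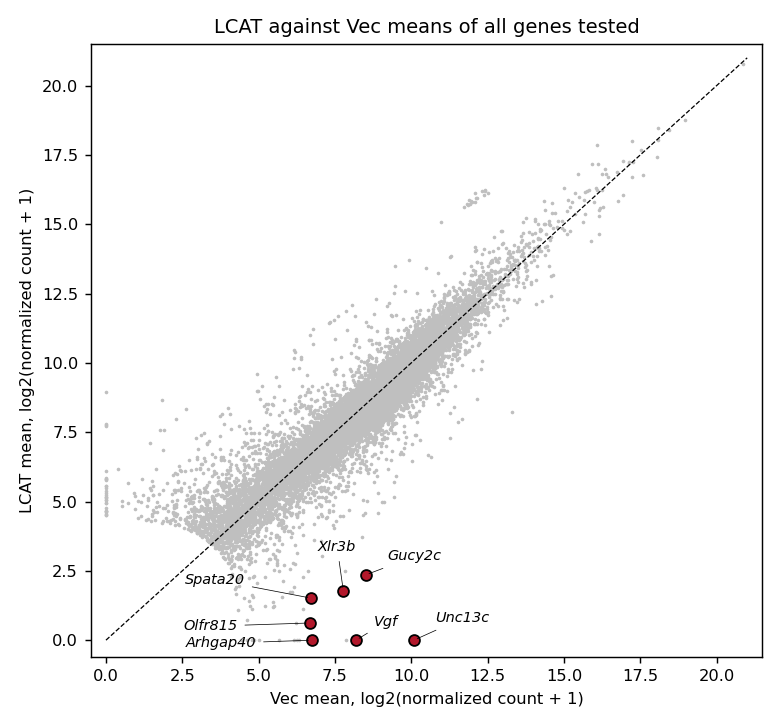
Mean LCAT level (vertical) against mean Vec level (horizontal) of the genes with a mean of at least 10, both as log2(normalized count + 1), with the line of equality dashed. The 7 genes, in red, lie at the bottom edge, with LCAT means of 0 to 4.11 counts and Vec means of 101 to 1086.5 counts.

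In the surgery experiment, which asked what loss of the ovaries does to livers with induced cancer, Spata20 was higher after ovariectomy. It had 331, 290, 231 and 51.1 in OVX libraries 1 to 4, against 0, 22.7, 21.3 and 7.30 in the Sham libraries, and the groups did not overlap. The log2 fold change was 4.51 ± 1.04 (SE; 95% interval 2.13 to 6.88; limma, adjusted p = 0.0105), and the exact two-sided permutation p was 0.0286, the smallest that 4 against 4 can give. Of all 13059 genes tested 39.6% were called, 19% higher and 20.6% lower, so a call is common in this comparison. The call held in 18 of 19 alternatives and was lost in libraries 1 and 4 alone (5.51, adjusted p = 0.252). On equal library totals the split of calls over all genes turned to 4454 higher and 1208 lower, against 2484 and 2686, with the median gene at 0.24; Spata20 then had 4.68.

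Gucy2c had 277, 225, 193 and 11.8 in OVX libraries 1 to 4, against 16.9, 42.0, 22.1 and 23.7 in the Sham libraries. OVX libraries 1 to 3 lay above all Sham libraries and OVX library 4 lay below them all. The log2 fold change of 2.12 ± 0.91 (95% interval 0.04 to 4.20) did not pass (limma, adjusted p = 0.0957; exact two-sided permutation p = 0.143). Without OVX library 4 it passed at 3.16 (limma, adjusted p = 0.000364), and it also passed with edgeR (2.74, adjusted p = 0.0201) and DESeq2 (2.75, adjusted p = 0.000348) on the recovered reads. The 10 markers of intestinal epithelium in the table, where Gucy2c is best known, summed to 5518 to 6866 in OVX and 3232 to 4172 in Sham. Of the 5 tested 3 were higher and 1 lower, beside 19% and 20.6% of all genes (median log2 fold change 1.46). Cdh17 averaged 4404 ± 1190 in OVX and 1605 ± 470 in Sham, and Krt20 had 132 to 626 in OVX and 57.0 to 83.9 in Sham. Vil1 had 4.59 to 43.3 in OVX and 0 to 3.65 in Sham. It reached the minimum mean of 10 only through OVX, so a call of it could only be higher. The lower one was Lgals4, at 126.7 ± 14.5 in OVX and 255.1 ± 25.5 in Sham. Its log2 fold change was -1.01 (limma, adjusted p = 0.000501), a call lost in libraries 1 and 4 alone. Fabp2 overlapped, at 1147 to 1975 in OVX and 1687 to 1933 in Sham. Muc2, Sis, Alpi, Gpa33 and Guca2a stayed at or under 4.215 in both groups. OVX library 4 was also the lowest OVX library in Spata20 and in the cholangiocyte markers. That list of 6 summed to 104005, 92034, 76157 and 36054 in OVX libraries 1 to 4, against 22169, 20476, 18432 and 15716 in the Sham libraries, and nearly all of it was Spp1, osteopontin. Without Spp1 the other 5 summed to 1095, 1043, 1127 and 948 in OVX, against 878, 862, 975.4 and 1064 in Sham. OVX libraries 2 and 3 stood at 0.805 and 0.683 of the way from library 4 to library 1 for Gucy2c and at 0.853 and 0.644 for Spata20. The part of these markers and library differences in either result was not tested.

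The other 5 genes were low in both surgery groups. Xlr3b had 8.40, 41.9, 13.2 and 0 in OVX libraries 1 to 4, against 2.11, 3.36, 0 and 0 in Sham, and its mean over these 8 libraries missed the minimum of 10. Without that minimum its log2 fold change was 2.18 ± 1.08 (95% interval -0.27 to 4.63; limma, adjusted p = 0.155). Its relative Xlr3a averaged 75.8 ± 19.9 in OVX and 9.18 ± 3.02 in Sham and was called higher (2.93, limma, adjusted p = 0.000265), a call that was lost in libraries 1 and 4 alone. Xlr3a reached the minimum mean of 10 only through OVX, so its call could only be higher. Arhgap40 (-0.82, interval -3.14 to 1.51, adjusted p = 0.564) and Vgf (-0.06, interval -1.35 to 1.24, adjusted p = 0.949) did not pass in the same limma fit, and Unc13c and Olfr815 had 0 reads in all 8 libraries. Of the 2 genes that passed the minimum, 1 was called higher and 0 lower.

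**Figure D4:**
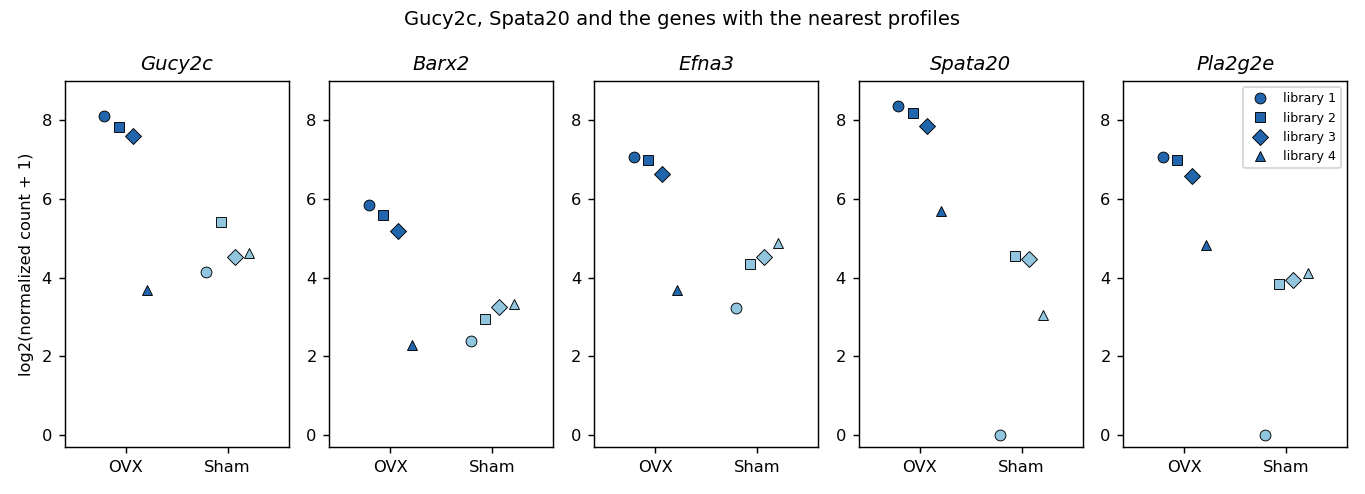
Gucy2c, Spata20 and the genes whose levels over the 16 libraries were nearest to theirs, as log2(normalized count + 1) in OVX and Sham libraries, with a marker shape per library number. OVX library 4 (triangles) is the lowest OVX library of all 5 genes and lies below all Sham libraries for Gucy2c and Barx2.

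The order of mean levels differed between the genes. For Gucy2c it was Vec, OVX, Sham, LCAT, at 362 ± 41.5, 176 ± 115, 26.2 ± 10.9 and 4.11 ± 2.81. Its Vec libraries were above all OVX libraries and its Sham libraries above all LCAT libraries, while OVX and Sham overlapped. For Spata20 the order was OVX, Vec, Sham, LCAT, at 226 ± 123, 105 ± 8.33, 12.8 ± 11 and 1.85 ± 2.47, and OVX overlapped Vec through OVX library 4 as Sham overlapped LCAT. For the other 5, Vec came first and the remaining groups overlapped or were all at 0. Per kilobase of the longest transcript in Vec the order of the genes was Unc13c, Vgf, Gucy2c (91.4), Xlr3b (57.6), Arhgap40 (49.4), Spata20 (39.9) and Olfr815 (35.2).

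Likeness was measured as the root mean square difference between centred log2(value + 1) profiles over the 16 libraries, among 12671 genes. The LCAT and Vec values that chose the genes enter it. Olfr815 was nearest to Olfr816 (0.53) and then Vgf (0.97), and Unc13c to Vgf (1.16) and then Olfr815 (1.6). Xlr3b and Arhgap40 were both nearest to Mpo, the neutrophil granule enzyme myeloperoxidase (1.05 and 1.31), followed by Olfr815 (1.51) for Xlr3b and Olfr816 (1.32) for Arhgap40. Gucy2c was nearest to Barx2, a homeobox factor (0.89), and Efna3 (0.996). Spata20 was nearest to Pla2g2e, a secreted phospholipase (1.27), and Efna3 (1.34). The median over all genes ran from 2.69 to 4.38 for the 7 genes. In OVX against Sham, Pla2g2e was called higher (3.39, limma, adjusted p = 0.0229), a call lost without any 1 of OVX libraries 1, 2 and 3 and in libraries 1 and 4 alone. Efna3 (1.85, adjusted p = 0.0815) and Barx2 (1.75, adjusted p = 0.0907) did not pass in limma, and both passed with edgeR, with DESeq2 and without OVX library 4. Efna3 also passed in the fit of all 16 libraries. Barx2, at 35.7 in OVX and 7.14 in Sham, reached the minimum mean of 10 only through OVX, so a call of it could only be higher.

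Genes lying next to the 7 on the chromosome were called in either direction about as often as all genes in LCAT against Vec. Of 28 neighbours, 2 on each side of each gene, 19 were tested in LCAT against Vec, and 2 were higher and 6 lower (42.1%, against 40.7% of all genes), with a median log2 fold change of -0.17. Of all genes 20.2% were higher and 20.5% lower, with a median of 0.0045. In OVX against Sham 15 were tested, with 4 higher and 1 lower (33.3%, against 39.6% of all genes). These were Atf7ip (0.87), Snhg11 (1.47), Ppp1r16b (0.85) and Plod3 (0.26), and Onecut1 (-1.03); the Snhg11 and Plod3 calls were lost without any 1 of several libraries. Onecut1, a hepatocyte transcription factor and neighbour of Unc13c, averaged 284 ± 67.4 in LCAT and 763 ± 119 in Vec (log2 fold change -1.44, limma, adjusted p = 0.000679). Plod3, a collagen lysyl hydroxylase beside Vgf, was slightly lower in LCAT (-0.42, adjusted p = 0.00837), and Olfr814, Olfr816 and Xlr4b were also among the lower calls. Olfr814, Olfr816 and Xlr4b reached the minimum mean of 10 only through Vec, so their calls could only be lower. That limits the comparison of lower calls with all genes. Epn3 beside Spata20, at 25.5 ± 12.2 in LCAT and 5.85 ± 2.25 in Vec, and Plbd1 beside Gucy2c, at 496 ± 147 in LCAT and 139 ± 18.2 in Vec, were higher (1.89, adjusted p = 0.0124, and 1.78, adjusted p = 0.00071). Epn3 passed the minimum only through LCAT, so its call could only be higher. These named calls were lost in libraries 1 and 4 alone.

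**Figure D5:**
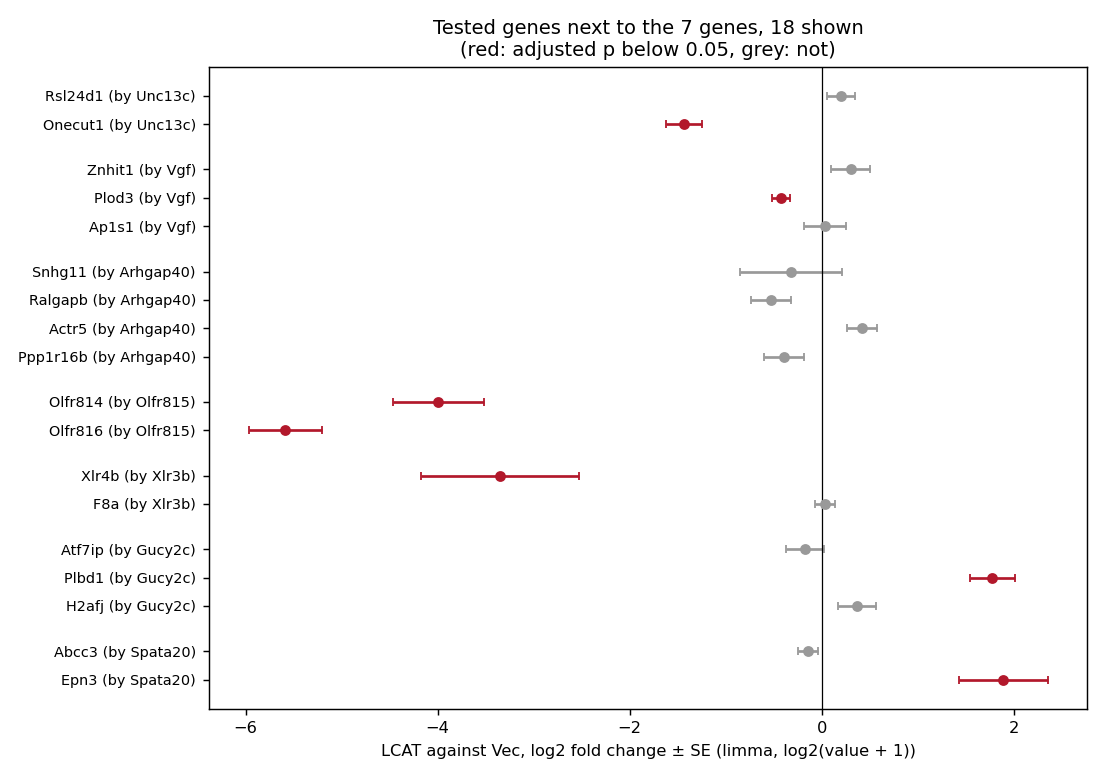
Log2 fold change ± SE of LCAT against Vec (limma on log2(value + 1)) for 18 tested neighbours of the 7 genes, with red points past an adjusted p of 0.05. Plbd1 and Epn3 stand above 0 at 1.78 and 1.89, and Olfr814 and Xlr4b below it at -3.99 and -3.35. The fitted value of Olfr816, which had 0 reads in LCAT, depends on the added pseudocount.

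Genes of the pathways of the 7 were called in both directions. Of all genes tested, 20.2% were higher and 20.5% lower in LCAT, and 19% higher and 20.6% lower in OVX. In LCAT, calls covered 63.6% of the cyclic GMP, 54.5% of the vesicle, 33.3% of the granin and 59.1% of the thioredoxin list. In OVX they covered 30%, 36.4%, 42.9% and 45.5%. Other Arhgap genes had 41.4% in both, and other Spata genes 22.2% and 37.5%. All genes stood at 40.7% and 39.6%, and no list was tested against these shares. Of 11 genes of cyclic GMP synthesis and use other than Gucy2c, 4 were higher and 3 lower in LCAT (median log2 fold change 0.35). Npr1, the receptor cyclase for natriuretic peptides, averaged 260 ± 7.72 in LCAT and 115 ± 10.3 in Vec (1.17, limma, adjusted p = 7.07e-05), and the exporter Abcc5 averaged 501 ± 137 in LCAT and 1024 ± 66.3 in Vec (-1.08, adjusted p = 0.00385). After ovariectomy 3 of 10 were higher and 0 lower (median 0.08; 5 and 0 of 11 on equal totals, median 0.36), led by the phosphodiesterase Pde5a at 74.97 ± 10.6 in OVX and 32.5 ± 6.13 in Sham (1.19, adjusted p = 0.00191).

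Of 22 vesicle priming and SNARE genes other than Unc13c, 7 were higher and 5 lower in LCAT (median 0.23), among them the calcium sensor Syt7 (1.64, limma, adjusted p = 0.00337). After ovariectomy 5 were higher and 3 lower (median -0.08), or 6 and 2 on equal totals (median 0.16). Rab27a, which tethers secretory granules, was higher in OVX (1.10, adjusted p = 0.00162), and Stxbp2 was lower (-0.40, adjusted p = 0.0025), a call lost on equal library totals. Of 6 granin and peptide processing genes other than Vgf, 1 was higher and 1 lower in LCAT (median -0.04), or 1 higher and 3 lower on equal totals (median -0.23). The peptide-processing carboxypeptidase Cpe averaged 1092 ± 338 in LCAT and 2883 ± 38.7 in Vec (-1.46, adjusted p = 0.00144), and Bdnf 36.1 ± 6.44 in LCAT and 18.1 ± 4.62 in Vec (0.97, adjusted p = 0.0133). After ovariectomy 1 of 7 was higher and 2 were lower, with Ptprn at -2.18 (adjusted p = 0.00131); the median was -0.07, and 0.17 on equal totals with the same counts.

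Other Arhgap genes stood at 8 higher and 4 lower of 29 in OVX (median 0.29), or 14 higher and 1 lower on equal totals (median 0.53), with Arhgap22 higher (0.53, limma, adjusted p = 0.000692) and Arhgap35 lower (-0.37, adjusted p = 0.00314, a call lost on equal totals). Of 22 thioredoxin system genes, 10 were higher and 3 lower in LCAT (median 0.48; 7 and 3 on equal totals), with Glrx higher (1.22, adjusted p = 0.00178) and Nxn lower (-0.96, adjusted p = 0.00409). After ovariectomy 5 were higher and 5 lower (median 0.01), or 9 higher and 1 lower on equal totals (median 0.25). Nxn was higher at 592 ± 47.5 in OVX and 252 ± 14.1 in Sham (1.23, adjusted p = 5.66e-05), while Glrx5 was lower (-0.69, adjusted p = 0.000946). Other Spata genes counted 0 higher and 3 lower of 8 after ovariectomy (median -0.12), or 2 higher and 1 lower on equal totals (median 0.11), among them Spata2l (-1.31, adjusted p = 0.0067). Except where stated, each gene named in these lists kept its call in every alternative but libraries 1 and 4 alone.

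Other cell types also differed between LCAT and Vec. The 7 Kupffer cell markers, all called higher in LCAT, summed to 3029 to 4477 in LCAT and 1019 to 1210 in Vec. Of all genes tested, 20.2% were called higher and 20.5% lower. Marco (0 to 6.14 in Vec) and Timd4 (0 to 4.39 in Vec) reached the minimum mean of 10 only through LCAT, so their calls could only be higher. The 6 cholangiocyte markers summed to 22903 to 30630 in LCAT and 68143 to 85507 in Vec, again mostly through Spp1; 4 were higher and 1, Spp1, lower. On equal library totals 6 Kupffer cell markers and 3 cholangiocyte markers were called higher. Neuroendocrine markers summed to 32.5 to 43.6 in LCAT and 20.7 to 29.6 in Vec, and neuron markers to 84.0 to 223 in LCAT and 59.7 to 69.0 in Vec, with Snap25 and Gap43 at 0 in both groups. Their members went both ways. Syt1 had 63.8 to 162 in LCAT and 38.4 to 51.2 in Vec, and Ncam1 13.2 to 23.3 and 2.62 to 8.77, while Chga was read in Vec alone. B cell markers summed to 114 to 187 in LCAT and 17.1 to 31.8 in Vec, and T cell markers to 43.3 to 171 and 28.1 to 41.1. The pancreatic acinar markers Prss2, Cpa1, Cela2a, Amy2a5, Pnlip and Ctrb1 were at 0 in Vec. Each ran from 0 to a highest LCAT value between 21.8 (Cpa1) and 143 (Ctrb1). Cela1 had 382 to 686 in LCAT and 660 to 811 in Vec. The part of cell composition in the levels of the 7 genes was not tested.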

How the data were processed

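Per the labels' protocols, polyadenylated RNA of 16 mouse liver libraries was extracted with TRIzol and sequenced by a BGI method. The submitters' processing notes name the build mm10 and the tools HISAT2, StringTie, SAMtools and FastQC. The sources used here do not give the counting tool, the annotation, strand use or the treatment of shared reads. The deposited values are a signal, read counts that the authors scaled with a single size factor for each library. Multiplied back, 100% of values were whole reads within 0.01, and each factor equalled the median-of-ratios one. Recovered depth was 12562943 to 27110501 reads per library. Each column belonged to a labelled sample. Of 16793 names, 16479 matched GENCODE M21 (mm10), and 24 had been turned into dates.

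OVX was compared with Sham, and LCAT with Vec, from their own 8 libraries. Values were tested as log2(value + 1), which understates changes of low genes, with limma 3.58.1 in R 4.3.3 (trended and robust). Genes whose mean over the 8 libraries was below 10 were left out, with Benjamini-Hochberg adjustment over all genes and a threshold of 0.05. For the 7 genes, an exact permutation test (two-sided) was added in OVX against Sham. Other gene counts are descriptions. Alternatives were pseudocounts of 0.5 and 5, no minimum, a minimum of 50, TMM, equal totals, a fit of all 16 libraries, the replicate number as a block, edgeR 4.0.16 and DESeq2 1.42.0 on recovered reads, and leaving out each library; libraries 1 and 4 alone were added after seeing the data. DESeq2 gave no adjusted p for 13 genes in OVX against Sham and 24 in LCAT against Vec, and these stayed missing. Scripts were tested on simulated data. The 7 genes and all lists were chosen with earlier results of these data known. Named beside the 7 genes are the 2 nearest profiles of each, the 2 neighbours on each side, Lcat, the gene with the smallest p in each direction of each list, and genes behind small counts; Unc13, Xlr and Olfr relatives, granins, guanylins, Dnah1 and the single markers were named after their values were seen. A gene at 0 reads in a group was set against a floor of 3 reads over the group. Some results that these choices cover are withheld and are not reported here.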

Additional observations from a re-analysis of the deposited data

Results flagged for a closer look

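Among 26 groups of 4 libraries looked at, 4 held a library far from the others. The rule flags about 1 in 20 groups of normally distributed values. That rate does not cover groups with a few reads, so the 4 are not set against it. Vgf was low in Vec library 4, at 142 against 327 in the nearest Vec library, a gap of 0.878 of the group's range. In OVX and in Sham, 1 library each held Vgf at all, at 2.03 and 2.55, which is 3 reads in each. The gap is then the whole range (1) by arithmetic. Lcat was low in LCAT library 4, at 4531 against 5014 in the nearest LCAT library, a gap of 0.839 of the range.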

How the results depend on the processing

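Libraries 1 and 4 alone left 0 higher and 0 lower calls in OVX against Sham (1688 genes at an unadjusted p under 0.05), 0 of the 7 genes called, and 1 higher and 2 lower in LCAT against Vec (2165 unadjusted); only 2 libraries per group entered. Equal totals gave 4454 higher and 1208 lower in OVX against Sham, and 1793 and 3967 in LCAT against Vec, where the median gene moved to -0.18. Without 1 library, higher and lower calls ran from 1735 to 3220 and 1863 to 3308 in OVX against Sham and from 1928 to 3346 and 1954 to 3482 in LCAT against Vec. Of the 7 genes, 2 were called higher with edgeR, with DESeq2 and without OVX library 4 (1 to 2 without 1 library); Spata20 ran from 3.50 to 5.51 and Gucy2c from 1.5 to 3.16 over all alternatives. Same-numbered libraries did not deviate together (correlations -0.034 to 0.121 and -0.059 to 0.040), so the numbers do not pair them; with the replicate block, calls were 2052 higher and 2287 lower in OVX against Sham, 2231 and 2327 in LCAT against Vec, Spata20 kept its call (adjusted p = 0.0258, limma) and Pla2g2e lost it.

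The LCAT minus Vec log2 difference of the 7 genes moved with the pseudocount (Unc13c -10.08, with -11.08 at 0.5 and -7.77 at 5). Genes near silent in LCAT numbered 26 at a minimum of 10, 9 at 50, 9 with a mean under 1 and 30 with a mean under 5 (16 to 20 without 1 library). In Vec they numbered 30, 3, 6 and 30 (9 to 39, with 39 without LCAT library 1 and 19 without LCAT library 4), in Sham 29, 2, 5 and 41 (11 to 19), and in OVX 4 with a mean under 5 (1 to 3). Levels of a few reads limit what LCAT values can show, and none of these values changed sign.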
